A study of Caenorhabditis elegans with 2 samples.

Results

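The genes described are lin-42, the Caenorhabditis elegans homologue of the clock gene Period, and kin-20, a casein kinase 1 homologue of Doubletime in flies and of CK1δ and CK1ε in mammals. They are 2 of 19973 protein-coding genes, and were chosen because peaks of the transcription factor LIN-29 lay in them. All peaks and candidate peaks were taken whose summit lay between 2000 bp upstream of the gene's 5′ end and its 3′ end. This gave 46 candidate regions of 54915 in the genome, 30 at lin-42 and 16 at kin-20. Of these, 5 were sites, that is, regions holding a peak of the authors' pooled thresholded list, out of 856 in all. The lin-42 window held 3 and the kin-20 window 2. Because the presence and signal of these peaks chose the genes, they are given as a description and were not tested.

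The data came from chromatin immunoprecipitation with sequencing (ChIP-seq) of whole L4 larvae of strain RW12227. In these animals the endogenous lin-29 gene on chromosome II carries a TY1::EGFP::3xFLAG insertion (allele st12227) made by CRISPR, and the protein was precipitated with an antibody to GFP. Larvae were starved at L1 after bleaching to synchronise them and were collected at 49 hours. There was 1 group of 2 biological replicates and no second genotype, time or treatment, and no untagged or input control was analysed here. Signal from different cell types of the animal cannot be told apart, and the labels do not say whether the tagged protein works as the untagged one does. The tagged gene itself had a site with a pooled signal of 65.7 (chrII:11917687-11917976, ce11), a value that does not check the label. No list gives read counts, so the depth of either library is not known, and with 2 replicates the spread is shown by giving both values.

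LIN-29 is a zinc finger factor at the end of the heterochronic pathway, the cascade that times larval events, and it drives the epidermal switch to the adult state. LIN-42 acts in the same pathway: its level rises and falls with each moult, and animals that lack it make adult structures too early. Its isoform a holds the SYQ and LT motifs, isoform c the PAS domain shared with Period, and isoform b both. In flies and mammals, Doubletime and CK1δ/ε phosphorylate Period and set its stability. KIN-20 is also needed for normal developmental timing in the worm.

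Both genes lie on the minus strand and start at several places. lin-42 (WBGene00018572, chrII:1233236-1252359, ce11) has 7 annotated isoforms with 5 different 5′ ends. In transcription order these are that of d and f at 1252359, of b and c at 1244035, of e at 1240101, of a at 1236969 and of g at 1234625. The first intron of d and f spans 8173 bp. kin-20 (WBGene00002203, chrX:15268602-15277764) has 8 annotated transcripts with 5 different 5′ ends. They are that of g at 15277764, of a at 15273789, of c and d at 15273739, of b at 15272952 and of e and f at 15272947. The first intron of g spans 4747 bp. The annotation puts no other protein-coding gene in either window, and the non-coding RNA genes F47F6.11 to F47F6.15 in that of lin-42 and F46F2.9, F46F2.10, F46F2.12, C02D4.5 and C02D4.15 in that of kin-20.

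The peak sequences of the 3 lin-42 sites and of the first kin-20 site are shown because the sites of lin-42 share a run of bases that those of kin-20 lack. Each is the 290-base peak in ce11, read from the RefSeq genome of the same assembly and written 5′ to 3′ on the gene's coding strand, the minus strand, with the pooled summit at base 145. Capitals mark the run TCTGCGTCTC or its reverse complement, and matches on either strand of 5 motifs of 6 bases. These are ACGCAG and, beside it, GAGAGA, both frequent at the sites of this series, the GC repeat GCGCGC, the homopolymer AAAAAA, and last GAAAGT. Sites are numbered from the 5′ end of the gene. lin-42 site 1 is chrII:1246871-1247160, site 2 chrII:1242488-1242777 and site 3 chrII:1237926-1238215. kin-20 site 1 is chrX:15277853-15278142.
lin-42 site 1: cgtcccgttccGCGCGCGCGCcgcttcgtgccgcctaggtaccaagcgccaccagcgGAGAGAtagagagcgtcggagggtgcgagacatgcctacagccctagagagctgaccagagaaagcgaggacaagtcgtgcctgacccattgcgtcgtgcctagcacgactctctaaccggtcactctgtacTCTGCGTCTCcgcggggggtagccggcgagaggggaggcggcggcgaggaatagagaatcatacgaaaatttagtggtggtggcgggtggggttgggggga
lin-42 site 2: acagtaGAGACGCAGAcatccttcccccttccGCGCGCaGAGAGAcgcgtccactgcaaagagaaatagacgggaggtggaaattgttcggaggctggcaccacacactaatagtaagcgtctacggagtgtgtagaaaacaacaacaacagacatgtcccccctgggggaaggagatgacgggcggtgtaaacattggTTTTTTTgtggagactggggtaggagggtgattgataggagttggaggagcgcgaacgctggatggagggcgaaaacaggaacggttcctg
lin-42 site 3: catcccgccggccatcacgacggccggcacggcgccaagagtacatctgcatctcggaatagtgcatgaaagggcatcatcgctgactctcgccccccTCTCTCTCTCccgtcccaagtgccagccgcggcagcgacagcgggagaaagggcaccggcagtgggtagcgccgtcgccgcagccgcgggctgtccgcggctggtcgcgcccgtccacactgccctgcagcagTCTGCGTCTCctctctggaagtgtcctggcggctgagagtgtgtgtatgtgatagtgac
kin-20 site 1: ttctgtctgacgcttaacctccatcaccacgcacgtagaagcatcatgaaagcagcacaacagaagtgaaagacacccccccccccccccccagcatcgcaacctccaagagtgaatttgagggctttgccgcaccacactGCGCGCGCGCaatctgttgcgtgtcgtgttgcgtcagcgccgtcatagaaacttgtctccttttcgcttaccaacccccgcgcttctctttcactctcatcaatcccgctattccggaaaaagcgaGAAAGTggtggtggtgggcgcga

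All 5 peaks consist of single-copy sequence, since every stretch of 50 bases in them occurs once in the genome. Of all pooled sites, 72.3% were wholly single-copy.

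The 3 sites of lin-42 all lay in introns, and each of them also lay upstream of internal 5′ ends. Of the kin-20 sites, the first lay upstream of the whole gene, and the second in an intron of isoform g and upstream of internal 5′ ends. A summit was called in a promoter when it lay within 1000 bp upstream of an isoform's 5′ end. By this measure 2 of 2 kin-20 sites and 0 of 3 lin-42 sites were in promoters, although 8 of the 30 lin-42 candidates and 3 of the 16 kin-20 candidates were. The third lin-42 site missed the limit narrowly, at 1102 bp. Over the genome, 48.2% of pooled sites and 22.5% of candidate regions had their summit in the promoter of a protein-coding isoform. No summit of the 5 sites fell in an exon of any isoform, against 7 of the 27 lin-42 candidates outside the sites and 6 of the 14 of kin-20. Exons of protein-coding isoforms held 10.5% of all pooled summits and 36.2% of all candidate summits. With 5 sites, nothing particular to the members is read from these shares.

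The first site of lin-42 had the highest signal of the 5 in the pooled list and in replicate 2, and the second highest, after kin-20 site 2, in replicate 1. It was the one found in all 4 thresholded lists. Its pooled signal, the authors' peak caller's value on a scale that is not stated, was 109.8, and its own signal was 51.5 in replicate 1 and 60.7 in replicate 2. It ranked 230th of 856 sites (73.2% of sites had a signal at or below it). The irreproducible discovery rate (IDR), which like a false discovery rate estimates how many peaks of that rank would not repeat between 2 inputs, was 0.000195 in the pooled list, 0.00187 in replicate 1 and 0.000301 in replicate 2. The summit lay in intron 1 of isoforms d and f, 5343 bp downstream of their 5′ end and 2981 bp upstream of that of isoforms b and c. It also lay inside 2 short non-coding RNA genes of opposite strands, F47F6.13 and F47F6.15, whose function is not annotated in the files used.

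The second site of lin-42 was weaker and rested on replicate 1 more than on replicate 2. Its pooled signal was 61.95 (rank 708 of 856), with 39.6 in replicate 1 and 22.7 in replicate 2. Within each replicate's own ranked list, where a percentile gives the share of candidates with a signal at or below it, these values stand at percentiles 98.4 and 92.2. Replicate 1's summit lay 99 bp from the pooled one, close to the limit of 100 bp for tying candidates of different lists. The IDR was 0.00712 in the pooled list but 0.0153 in the conservative list, 0.0119 in replicate 1 and 0.441 in replicate 2, so it entered none of those 3 at the threshold of 0.01. The summit lay in intron 2 of isoforms b and c and intron 3 of d and f, 1402 bp downstream of the 5′ end of b and c and 2532 bp upstream of that of e.

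The third site of lin-42 showed the opposite order of the replicates. Its pooled signal was 73.2 (rank 515), with 35.4 in replicate 1 and 48.95 in replicate 2. The IDR was 0.00229 in the pooled list, 0.00122 in the conservative list, 0.233 in replicate 1 and 0.00155 in replicate 2, and the site was in replicate 2's thresholded list and not in replicate 1's. The summit lay 1102 bp upstream of the 5′ end of isoform a, a form without the PAS domain, just beyond the promoter limit. The same position is intron 5 of isoform b, intron 6 of d and intron 1 of e, and is downstream of the 3′ ends of c and f.

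**Figure D1:**
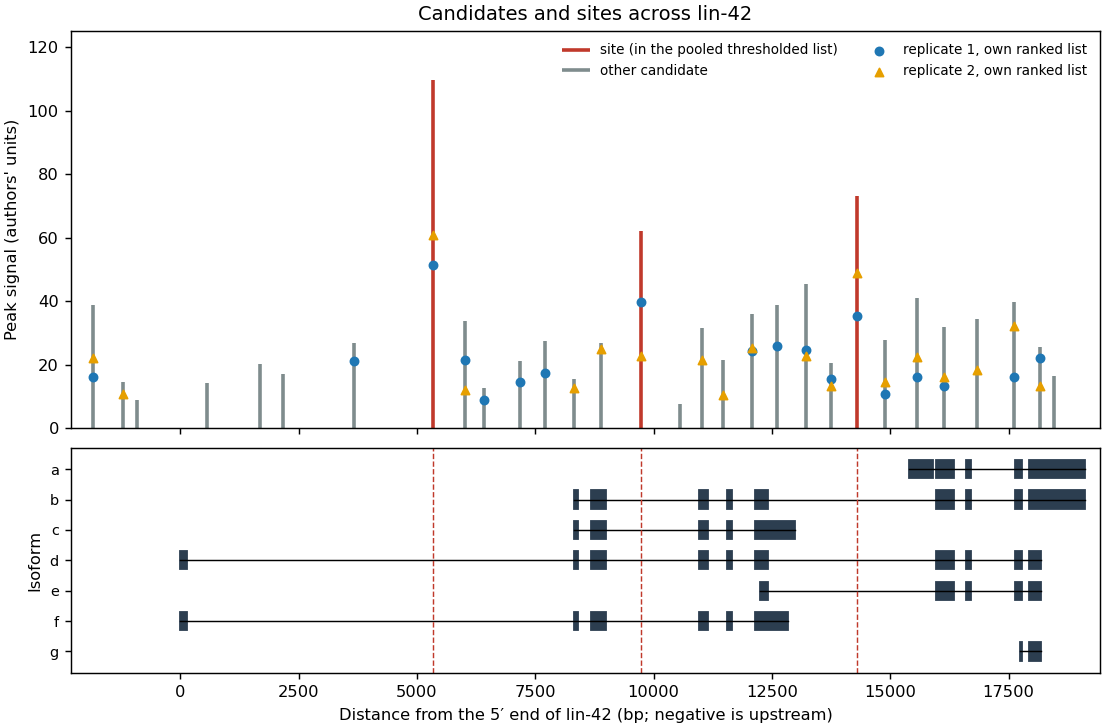
Peak signal (authors' units) of the 30 candidate regions of lin-42 against distance from the 5′ end of isoforms d and f, in bp; lines are the pooled signal, red for the 3 sites, and points are the tied candidates of each replicate. Isoforms are drawn below with exons as boxes. The sites stand at 5343, 9726 and 14288 bp with pooled signals of 109.8, 61.95 and 73.2, and the highest other candidate has 45.4.

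The first site of kin-20 was at the edge of the threshold. Its pooled signal was 53.2 (rank 830 of 856), with 26.1 in replicate 1 and 18.4 in replicate 2, at percentiles 92.99 and 80.8 of the replicates' candidates. The IDR was 0.00997 in the pooled list, just under the limit of 0.01, and 0.123 in the conservative list, 0.197 in replicate 1 and 0.61 in replicate 2, all above it. The summit lay 234 bp upstream of the 5′ end of isoform g, the form that starts farthest upstream. An overlapping second peak with a signal of 8.48 was also in the pooled list and was merged with it (chrX:15277853-15278355).

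The second site of kin-20 was nearly as strong as the first of lin-42 when the replicates were pooled. Its signal and IDR differed between the replicates, whose signals have no stated common scale, while its percentiles were close. Its pooled signal was 101.5 (rank 253, percentile 70.6), with 59.02 in replicate 1 and 34.8 in replicate 2, at percentiles 99.4 and 98.6 of the replicates' candidates. In replicate 1 this is above the 51.5 of the first lin-42 site, and in replicate 2 it is below the 60.7 of that site. The IDR was 0.00264 in the pooled list and 0.00068 in the conservative list, but 0.011 in replicate 1, which narrowly missed the threshold, and 0.279 in replicate 2. The summit lay 444 bp upstream of the 5′ end of isoform a and 494 bp upstream of that of c and d. It is also in intron 1 of isoform g, 3531 bp downstream of its 5′ end, and inside the non-coding RNA gene F46F2.10 on the plus strand.

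**Figure D2:**
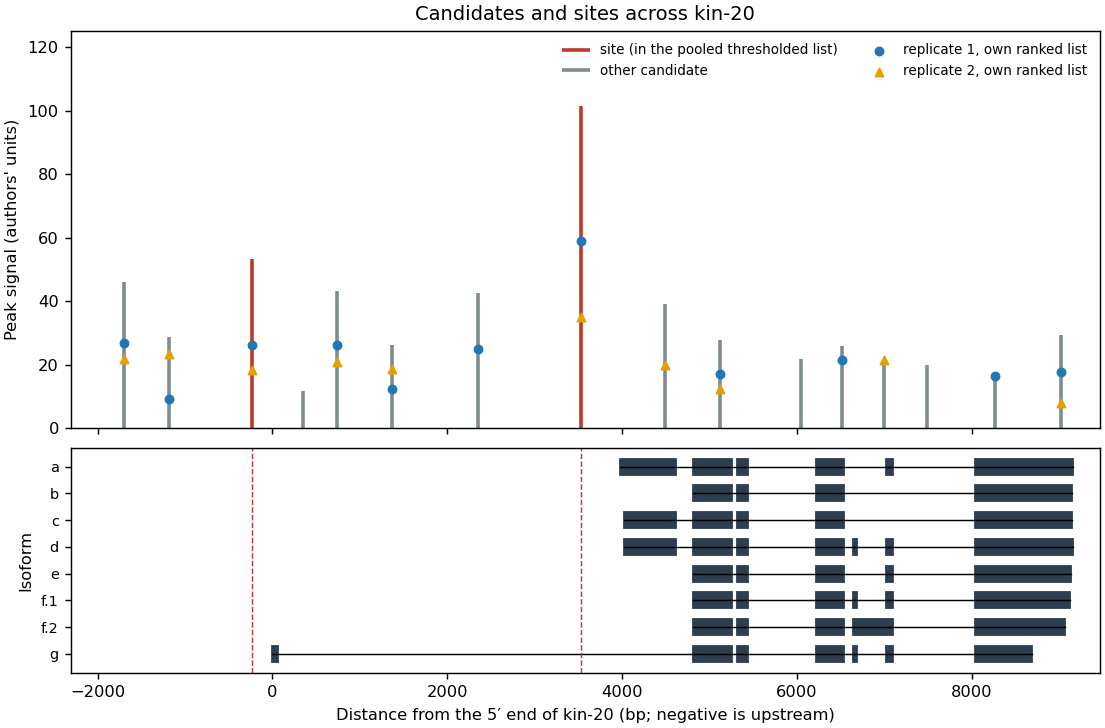
Peak signal (authors' units) of the 16 candidate regions of kin-20 against distance from the 5′ end of isoform g, in bp; lines are the pooled signal, red for the 2 sites, and points are the tied candidates of each replicate. Isoforms are drawn below with exons as boxes. The sites lie 234 bp upstream of g and 3531 bp downstream of it, where the second site is just upstream of the 5′ ends of a, c and d.

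Read across the lists, 1 of the 5 sites was in every list, and the kin-20 sites were in neither replicate's own list. The conservative list held 3 of the 5, sites 1 and 3 of lin-42 and site 2 of kin-20. Replicate 1's list held 1 and replicate 2's held 2, all in lin-42. Over the whole genome, 1.56% of candidate regions were called in the pooled list, 1.46% in the conservative list, 1.27% in replicate 1's and 0.883% in replicate 2's. Since the genes were chosen on these peaks, nothing is read from the members' share. Of all 856 pooled sites, 267 (31.2%) were in all 4 lists, as was lin-42 site 1. Another 75 (8.76%) had the pattern of lin-42 site 3, 200 (23.4%) that of kin-20 site 2, and 93 (10.9%) were in the pooled list alone, as were lin-42 site 2 and kin-20 site 1. The median pooled signal of these groups was 146, 80.8, 66.4 and 58.98.

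**Figure D3:**
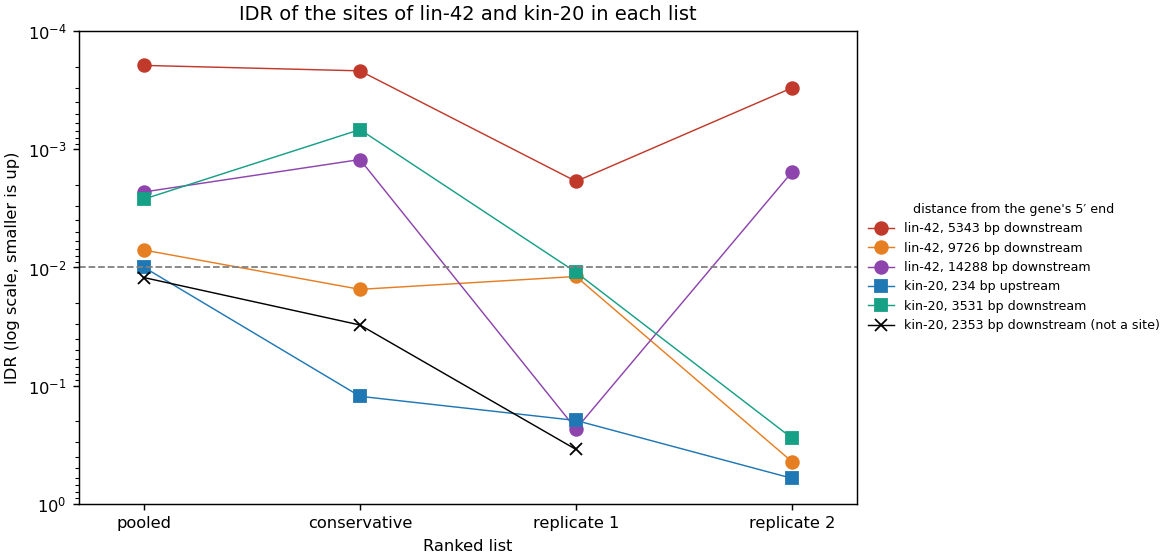
IDR on a log scale, with smaller values higher, of the 5 sites and of the kin-20 candidate closest to the threshold, in each of 4 ranked lists; the dashed line is the threshold of 0.01. The first lin-42 site is above the line in every list, the third lin-42 site falls below it in replicate 1 alone, and both kin-20 sites are below it in both replicates.

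The candidates just outside the threshold are given here as a description of the limit. At kin-20, a candidate 2353 bp downstream of the 5′ end of g (chrX:15275266-15276012, 3 overlapping peaks) had an IDR of 0.0122 and a signal of 42.4, beside the 0.00997 and 53.2 of the site just inside. The IDR of a merged region is the smallest of its peaks, so it may belong to another peak than the signal does. The candidate lay in intron 1 of g, and its conservative IDR was 0.0307. Both replicates had a candidate overlapping this region. Replicate 1's had a signal of 24.9 (percentile 91.4). Replicate 2's had 26.1 (percentile 95.98), with its summit 225 bp from the pooled one, so that it was not tied to it. The candidate 1699 bp upstream of g had more signal, 46.1, with an IDR of 0.0863, and overlapped C02D4.5 and C02D4.15. At lin-42 the closest candidate in the pooled list, 13221 bp downstream of the first 5′ end in intron 5 of b, had a signal of 45.4. Its pooled IDR was 0.0942, so in that list a wide gap separated it from the 0.00712 of site 2. In the conservative list the values lay closer together. There the IDR was 0.0559 for this candidate, 0.0384 for one upstream of isoform e, described below, and 0.0153 for site 2, itself above the threshold.

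Some candidates at annotated 5′ ends stood out in 1 list. A lin-42 candidate 174 bp upstream of isoform e had an IDR of 0.0384 in the conservative list and 0.721 in the pooled one, with a signal of 24.3 in replicate 1 and 25.3 in replicate 2. Another, 110 bp upstream of isoform g, had an IDR of 0.0406 in replicate 2 (signal 32.1) and of 0.556 in replicate 1 (signal 16.1). The candidate closest to the shared 5′ end of b and c, 6 bp upstream of it, had a pooled signal of 15.3, a tied candidate in replicate 2 and, in replicate 1, an overlapping one whose summit lay 257 bp away. The closest to the 5′ end of d and f on the upstream side, at 905 bp, had 8.99 and was tied in neither replicate. Within 1000 bp upstream, the highest pooled signal was 39.7 for isoform g, 35.99 for e, 27.8 for a, 27.3 for b and c and 8.99 for d and f. At kin-20, the candidate 316 bp upstream of isoform b had 39.2, with no tied candidate in replicate 1 and one at percentile 86.5 in replicate 2.

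The candidates outside the sites had less pooled signal than any site of either gene. The 27 lin-42 candidates outside the sites had pooled signals of 7.47 to 45.4 with a median of 26.7, and 18 of them had an IDR above 0.5. The 14 of kin-20 had 11.6 to 46.1 with a median of 26.95, and 11 had an IDR above 0.5. Over all candidate regions outside the pooled sites, the median signal was 22.2 and 83.7% had an IDR above 0.5. The highest not yet named were one 737 bp downstream of the 5′ end of kin-20 isoform g, with a signal of 43.3 and an IDR of 0.676, and one in exon 1 of lin-42 isoform a, with 40.9 and 0.129. The first intron of lin-42 isoform d held 10 candidates, 1 of them a site, and that of kin-20 isoform g held 6, 1 of them a site.

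Candidates were dense in both windows, which are also long. There were 1.42 candidates per kb at lin-42 and 1.43 at kin-20, against 0.548 in the genome. The windows of 21124 bp and 11163 bp compare with a median of 4027 bp over all protein-coding genes. Among the 218 genes whose window was at least as long as that of lin-42, the median was 17 candidates, and 10.1% had more than its 30. Among the 1200 with a window at least as long as that of kin-20, the median was 9, and 13.5% had more than its 16. Of all protein-coding genes, 4.61% had a site, but the share was 15.6% among genes with windows as long as that of lin-42 and 11.0% among those as long as that of kin-20. Counts as high as those of the members were rarer: 3 or more sites were found in 1.38% of the first group (3 of 218) and 2 or more in 1.83% of the second (22 of 1200), each count including the member itself. These shares describe where the chosen genes stand and are no test of them.

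Candidates tied in both replicates differed in which replicate gave them the higher percentile. A candidate was tied to a replicate when the summits lay within 100 bp. At lin-42, 13 of 30 candidates were tied in both replicates, and the percentile was higher in replicate 2 at 9 and in replicate 1 at 4. At kin-20, 8 of 16 were tied in both, and the percentile was higher in replicate 2 at 2 and in replicate 1 at 6. The same counts over the genome are not given here, so no difference between the genes is read from them. Over the genome 11720 candidates (21.3%) were tied in both, by the same measure as the 13 of 30 and 8 of 16. Counting any overlap instead of tied summits, 20 of the 30 lin-42 and 10 of the 16 kin-20 candidates overlapped a candidate of both replicates. The share by any overlap over the genome is not given here, so these counts are not to be set against the 21.3%. Spearman's rho between the replicates' signals across candidates was 0.63 at lin-42, 0.33 at kin-20 and 0.33 over all tied candidates. It is a description, since the candidates of a replicate share 1 library. The tied candidates of each gene also include its sites, whose signal chose the genes, so no difference between these values is read. The summits of the sites differed in position between the replicates by 59 bp at lin-42 site 1, 110 at site 2, 90 at site 3, 90 at kin-20 site 1 and 6 at kin-20 site 2.

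**Figure D4:**
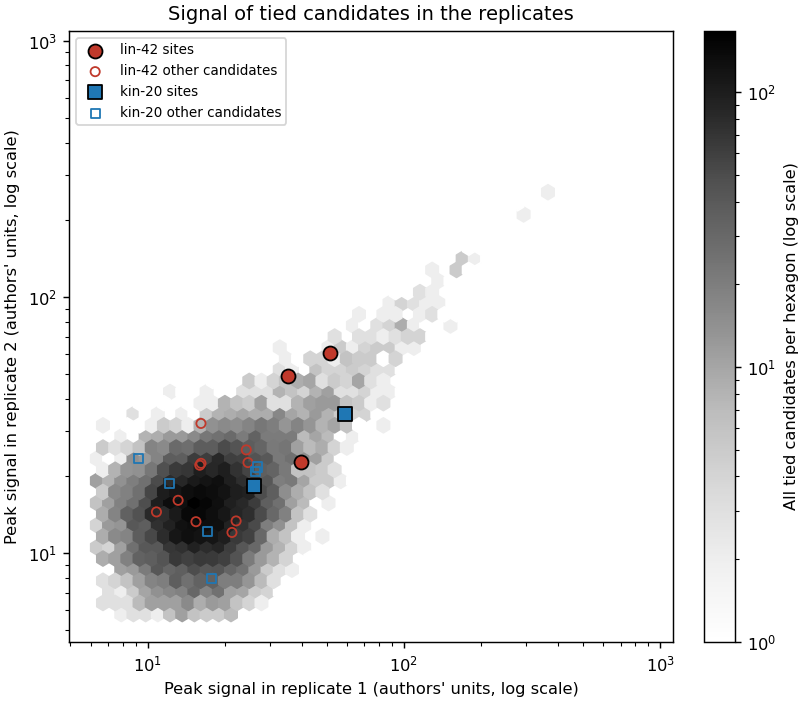
Peak signal in replicate 2 against replicate 1, both in the authors' units on log axes, for candidates tied in both replicates: filled symbols are the sites of lin-42 and kin-20, open symbols their other candidates, and grey hexagons all 11720 tied candidates. Sites 1 and 3 of lin-42 have more signal in replicate 2 and the other 3 sites more in replicate 1; their percentiles in the replicates' lists have the same order.

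The 3 lin-42 sites share the run TCTGCGTCTC, the longest run of bases present on either strand in all 3 peaks. In the sequences printed above it starts at base 190 of site 1 and base 232 of site 3 on the coding strand, and at base 7 of site 2 as its reverse complement. The run contains the motif ACGCAG, read on the other strand, so the ACGCAG match of each lin-42 site is the same stretch. Neither kin-20 peak holds the run or ACGCAG. Within 150 bp of the summit, ACGCAG was also present at 3 of the 27 other lin-42 candidates and 1 of the 14 other kin-20 candidates. The share was 27.6% over all pooled sites and 8.21% over all candidate regions. Between pairs of the 4 peaks shown the longest shared run had 9 to 11 bases, and the longest runs common to all 4 had 6.

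In the lin-42 window every copy of the run lay beside a site. The window holds 4 copies, 3 in the peaks shown and 1 just outside the peak of site 1, at distances of 54 and 155 bp from the summit of site 1, 129 bp from that of site 2 and 96 bp from that of site 3. The kin-20 window holds 0 copies. Within 150 bp of the summit, the run was present at 3 of 3 lin-42 sites, 0 of 27 other lin-42 candidates, 0 of 2 kin-20 sites and 0 of 14 other kin-20 candidates. The same share was 11.0% over all pooled sites (94 of 856) and 1.82% over all candidate regions (999 of 54915). Of the 3338 copies in the genome, 3.03% lay within 150 bp of a pooled summit, so most copies had no site. The genome has 0.333 copies per 10 kb and the lin-42 window 1.89. The run was picked from these 3 sequences, so its presence in them is not evidence, and a match is no binding site.

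The other motifs frequent at sites were also found away from the sites of lin-42. GAGAGA was found within 150 bp of the summit at 3 of 3 lin-42 sites and 0 of 2 kin-20 sites, against 40.8% of all sites and 18.5% of all candidates. Of the candidates outside the sites, 8 of 27 at lin-42 and 4 of 14 at kin-20 held it. Within the same 150 bp, ACGCAG and GAGAGA occurred together at 3 of 3 lin-42 sites and at 1 of the 27 other candidates there. The pair was at 15.2% of all sites and 2.55% of all candidates. Within 50 bp of the summit, GAGAGA was present at lin-42 site 3 but not at sites 1 and 2, and ACGCAG at no lin-42 site. The 50 bp shares were 22.0% for GAGAGA and 17.2% for ACGCAG over all sites, and 7.14% and 3.18% over all candidates. GCGCGC was present within 150 bp of the summit at sites 1 and 2 of lin-42 and at site 1 of kin-20. At kin-20 site 1, 3 overlapping matches start at bases 142 to 146, at the summit. Within 150 bp, GCGCGC was present at 16.5% of all sites and 3.03% of candidates.

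AAAAAA, found among the peaks shown at lin-42 site 2, was common everywhere, at 70.1% of all sites and 65.2% of candidates. GAAAGT was present in the kin-20 peak shown and in 0 of the 3 lin-42 peaks. It was within 150 bp of the summit at 7 of the 27 other lin-42 candidates and 3 of the 14 other kin-20 candidates, and at 21.4% of all sites and 22.7% of all candidates. AGGTCA, bound by many nuclear receptors, was found at 0 of the 5 sites, against 7.94% of all sites. CACGTG, the E-box bound by activators of Period in flies and mammals, was also found at 0 of 5, against 9.93% of all sites. With 5 sites, nothing is read from either absence. Of the other candidates, 2 of 27 at lin-42 and 1 of 14 at kin-20 held AGGTCA, against 8.18% of all candidates. For CACGTG it was 3 of 27 and 2 of 14, against 6.74%. The motifs frequent at the sites of this series were chosen with that frequency known.

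GC content was above the median of all pooled sites at each lin-42 site and at kin-20 site 1. Within 50 bp of the summit it was 57.4%, 51.5% and 74.3% at the lin-42 sites and 56.4% and 42.6% at the kin-20 sites. The median was 41.6% for the other candidates of each gene, 49.5% over all pooled sites and 40.6% over all candidate regions. Site 3 of lin-42 was higher in GC than 99.9% of sites, or equal to them, whereas site 2 of kin-20 was below the median. The part of GC content in the signal was not tested.

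**Figure D5:**
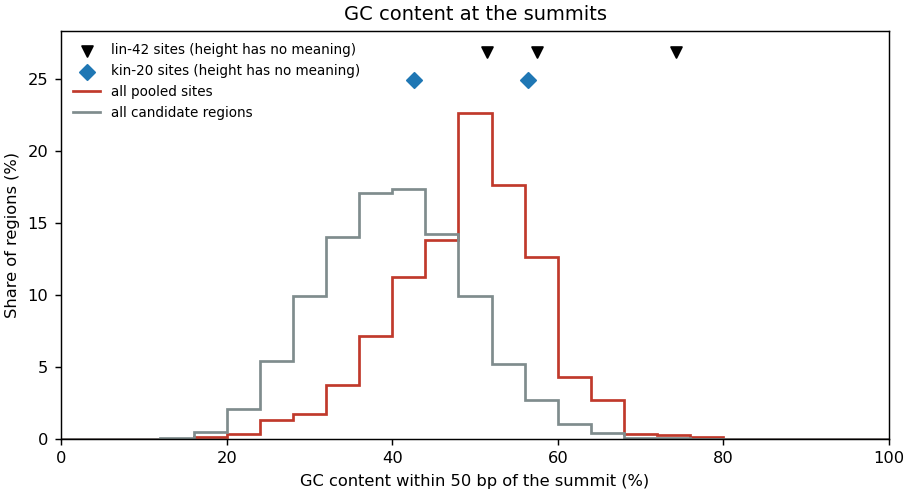
GC content within 50 bp of the summit, in percent, for the 3 lin-42 sites (triangles) and the 2 kin-20 sites (diamonds), above the distribution of all 856 pooled sites (red) and all 54915 candidate regions (grey), as the share of regions in bins 4 percentage points wide. The lin-42 sites lie at 51.5% to 74.3% and the kin-20 sites at 42.6% and 56.4%.

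The strongest site of each gene also lay in a non-coding RNA gene, as described above. Over the genome 15.1% of pooled summits (129 of 856) and 2.23% of candidate summits did so. Of the candidates outside the sites, 0 of 27 at lin-42 and 1 of 14 at kin-20, that at F46F2.9, had a summit inside one. Whether transcription of these genes bears on the signal was not tested.

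A list of 18 genes, lin-42 and kin-20 included, was looked up, made up of casein kinase and other clock gene homologues and of further genes of developmental timing. Of the 16 others, 4 had a site. Among the 14 of them that code for proteins it was 3, against 4.61% of all protein-coding genes, and nothing particular to the list is read from this. tim-1, a homologue of Timeless that acts in chromosome cohesion in the worm, had 2 sites, the stronger 211 bp upstream with a pooled signal of 69.5, 46.6 in replicate 1 and 21.9 in replicate 2. Replicate 1's list held it, and neither replicate 2's nor the conservative list did. nhr-85, a nuclear receptor related to Rev-Erb, had a site 1603 bp downstream of its 5′ end with 71.6, 36.95 in replicate 1 and 37.7 in replicate 2. It was in the conservative list and in neither replicate's own. nhr-23, a ROR-type receptor needed for moulting, had one 2649 bp downstream with 65.6, 39.7 in replicate 1 and 23.4 in replicate 2, which was in the pooled list alone.

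The microRNA gene lin-4, which represses lin-14 early in the heterochronic pathway, had a site 292 bp upstream with 72.9, 39.4 in replicate 1 and 30.3 in replicate 2, in the conservative list and in neither replicate's own. All 4 of these genes had a lower strongest pooled signal than lin-42 or kin-20, but nothing is read from this, since signal chose those 2 genes. The other casein kinase 1 genes of the list, kin-19 and csnk-1, had no site, with smallest IDRs of 0.136 and 0.0628. The kinase gene gsk-3, whose fly homologue acts on Timeless, had none at 0.025, the receptor gene daf-12 none at 0.0331, and blmp-1, a factor that tunes cycling transcription, none at 0.0361. The microRNA gene let-7, whose level LIN-42 is known to restrain, had none at 0.0593. lin-23, tipn-1, aha-1, atf-2, ces-2 and sart-3 also had none.

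The genes whose strongest site was most like that of each member were found among 875 genes by the distance between percentiles in the 2 replicates' ranked lists. For lin-42 they were sre-23 (signal 49.9 in replicate 1 and 61.1 in replicate 2), phm-2 (52.7 and 68.5) and F49D11.10 (49.5 and 57.8), at distances of 0.0752, 0.0847 and 0.104 percentile points. For kin-20 they were egl-9 (60.5 in replicate 1 and 34.3 in replicate 2), C04C11.25 (62.2 and 35.4) and bag-1 (63.8 and 34.2), at 0.0699, 0.0917 and 0.124. With 2 replicates this measure tells only that the signals are similar.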

How the data were processed

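ChIP-seq of EGFP-tagged LIN-29 was measured in 2 biological replicates. The deposited peak lists, in ce11, hold a signal from the authors' peak caller, whose scaling is not stated, and a score that the authors made with IDR. The ranked lists deposited by the authors also hold the IDR as −log10. Per the file headers in the manifests, replicate lists came from each replicate's alignments and series-wide lists from both, with a further input of unstated role. Neither aligner nor peak caller is named in the sources used here. In the thresholded lists the lowest score, 830 of at most 1000, equals an IDR of 0.01. A further 16 columns on inputs were not used, because they could not be tied to samples.

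Peaks of a list overlapping by 1 bp or more were merged, keeping the strongest peak's summit and signal. A merged region took the smallest IDR and the highest score of its peaks. Genes came from Ensembl release 115 and sequence from RefSeq (both WBcel235, the assembly of ce11). Python 3.11.15, pandas 2.3.3, numpy 2.4.6 and scipy 1.17.1 were used, and the merging and windows were checked on simulated data. Comparisons are descriptions without tests. The replicates were grouped by their labels. The members, lists and motifs were chosen with earlier results of these data known, and the 10-base run after the sequences were seen. The genes named are the members, genes in their windows, listed genes (values for each one with a site) and the 3 most similar genes of each member. The sequence of the second kin-20 site is not reported here.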

Additional observations from a re-analysis of the deposited data

How the results depend on the processing

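The main limits are 2 replicates, unknown depth and signal of unstated scale. lin-42 had 3 sites in the pooled list, 1 at an IDR of at most 0.001, and 1 to 2 when a replicate was left out: 2 without replicate 1 and 1 without replicate 2. Its other 6 alternatives gave 2 or 3. kin-20 had 2 sites, 1 in the conservative list and 0 at an IDR of at most 0.001. It had 0 without replicate 1 and 0 without replicate 2. Its other 5 alternatives gave 2 or 3, with 3 at an IDR of at most 0.05. To leave out a replicate, the other replicate's own list was read. The percentile of the strongest lin-42 site, 73.2, was 71.6 in the conservative list. It was 38.1 among the 528 sites of replicate 1's list and 59.6 among the 381 of replicate 2's. Each percentile ranks the site within a different set of sites. The percentile of the strongest kin-20 site, 70.6, was 68.6 in the conservative list. It had no value without a replicate, because neither replicate's own list held a kin-20 site. Candidate counts stayed between 21 and 34 at lin-42 and between 12 and 20 at kin-20. The causes were not tested. Ranking by the p-value column was not run, since that column holds the same placeholder in every row. No paired analysis was possible because there is 1 group and the results come from no test.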
